A study of Gallus gallus with 8 samples.

Results

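Sites of open chromatin in adult chicken red blood cells (aRBC) were set against those in HD3 erythroblasts, a line of red cell precursors. The members were all peaks of the 2 deposited lists, 11395 in the aRBC list and 11763 in the HD3 list, together 23158 of the 53397 peaks in the 4 lists of the series. A peak was called shared where it overlapped a peak of the other list by at least 1 bp. This gave 4952 shared aRBC peaks (43.5% of the aRBC list, 95% Wilson interval 42.6% to 44.4%) and 6443 aRBC peaks without HD3. It gave 5067 shared HD3 peaks (43.1% of the HD3 list, 42.2% to 44.0%) and 6696 HD3 peaks without aRBC. Few calls hung on the threshold: 83 of the 5086 overlapping pairs shared less than 50 bp, and 23 aRBC peaks and 29 HD3 peaks without a partner lay less than 50 bp from the other list.

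The assay was ATAC-seq, which marks accessible chromatin by letting the Tn5 transposase cut and tag it. The aRBC samples were primary cells of wild-type hens of 28 to 38 weeks, and the HD3 samples were the cultured line, labelled wild type too, with 2 samples of each. Embryonic day 10 red blood cells (eRBC) and primary fibroblasts, with 2 samples each, served here as further readouts. The lists are 1 per cell type, and whether a list rests on both samples or on 1 is not given in the sources used here, so no value below has a replicate error or a test between cell types, and the intervals cover counting error over peaks only. Peaks lie beside one another along the genome, which makes these intervals too narrow as statements on cells. Culture, transformation and maturity differ together between HD3 and aRBC and cannot be told apart. Read depth is unknown. The labelled cell types were not checked against marker genes, since no annotation of the build of the lists (GRCg6a) was used here.

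Birds keep the nucleus in their circulating red cells. As erythroblasts mature they stop dividing, the nucleus condenses around a red cell specific linker histone, and most transcription ends, after a phase in which the globin genes are strongly expressed. HD3 cells derive from erythroblasts transformed by avian erythroblastosis virus, divide in culture and are held before terminal differentiation. Accessible sites are mostly promoters, enhancers and insulators, and chicken chromosomes range from a few large ones to many small, gene-rich microchromosomes.

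Over the whole range of strength the shared share spanned a wider range in the aRBC list than in the HD3 list. Strength was the rank of a peak within its own list by the authors' fold enrichment (a ratio of pileup at the summit to local background), given as a percentile with 100 as the highest. Over 10 equal bins of the aRBC list, the shared share climbed in every step, from 7.99% (6.55% to 9.71%) in the lowest bin through 34.8% in bin 5 to 88.9% (87.0% to 90.6%) in the highest. Over the same bins of the HD3 list it lay between 35.4% (32.7% to 38.2%) in the lowest bin and 50.4% (47.5% to 53.2%) in bin 9, with 44.9% (42.1% to 47.8%) in the highest. Among the top 1000 peaks, 891 aRBC peaks were shared and 441 HD3 peaks were. Among the top 100 the counts were 81 in aRBC (81.0%, 72.2% to 87.5%) and 50 in HD3. The shared share of the top 100 aRBC peaks was thus below that of the top 1000 (89.1%, 87.0% to 90.9%), with intervals that meet. The median shared peak stood at percentile 72.1 of the aRBC list, against 33.6 for aRBC peaks without HD3. In the HD3 list the medians were 54.8 for shared peaks and 46.0 for HD3 peaks without aRBC. When only peaks of −log10 q 10 or more were kept, the shared median of HD3 was 49.9 (48.0 to 52.1). Its interval includes the middle of the list.

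**Figure D1:**
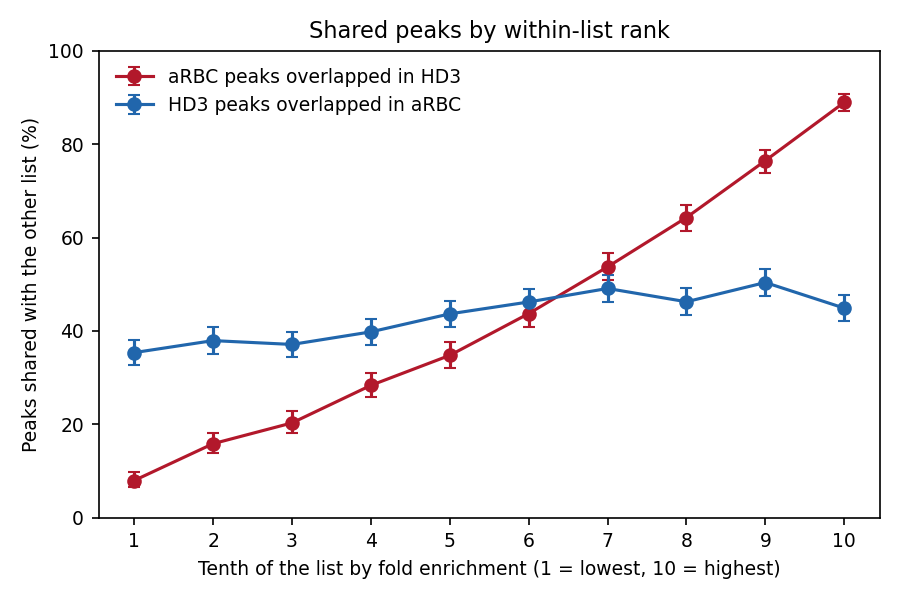
Share of peaks overlapped in the other list (y axis, %) by 10 equal bins of within-list fold enrichment (x axis, lowest to highest), for aRBC peaks and HD3 peaks, with 95% Wilson intervals. The aRBC line climbs from 7.99% to 88.9%, while the HD3 line stays between 35.4% and 50.4%.

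Where a site was open in both cell types, its order of strength was only loosely kept. Across the 5086 pairs, the percentiles in aRBC and HD3 had a Spearman rho of 0.37, a description over sites that share their libraries within each list. In 45.3% of pairs both peaks were in the upper part of their list (percentile 50 or more) and in 14.9% both were in the lower part. Pairs high in aRBC and low in HD3 made up 30.1%, and pairs low in aRBC and high in HD3 9.67%. The gap between these 2 shares restates that paired peaks ranked higher in aRBC (median percentile 72.2) than in HD3 (54.8). It is not a further result. Summits of a pair lay close together, at a median distance of 34 bp (quartiles 10 and 67), with 92.5% within 150 bp. Pairs were made by overlap, which limits how far apart their summits can lie, so this closeness is partly built in.

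**Figure D2:**
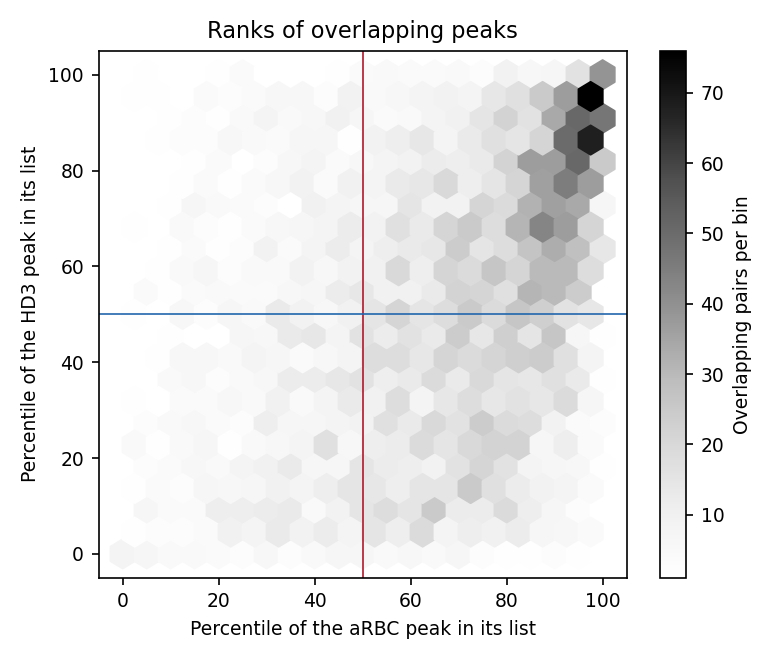
Percentile of the aRBC peak (x axis) against that of the HD3 peak (y axis) in the 5086 overlapping pairs, with darker bins holding more pairs and lines at percentile 50. The pairs crowd at the right edge, high in aRBC and spread over all ranks in HD3, with the densest bins in the upper right corner.

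The 3 pairs whose worse rank was best lay on chromosome 2 from 86463194 to 86463340 (aRBC positions, fold enrichment 64.6 and rank 3 in aRBC, 44.7 and rank 5 in HD3), on chromosome 31 from 3132671 to 3132957 (55.0 and rank 6 in aRBC, 53.2 and rank 1 in HD3) and on chromosome 2 from 65121368 to 65121556 (66.5 and rank 2 in aRBC, 39.3 and rank 7 in HD3). All 3 were also peaks in eRBC and fibroblasts. Other overlapping pairs stood far apart in the 2 orders. On chromosome 5 from 13305735 to 13306368, a 634 bp aRBC peak at percentile 98.4 covered a 121 bp HD3 peak at percentile 1.50, at a site found in eRBC and not in fibroblasts. On chromosome 1 from 112296944 to 112297432, an aRBC peak at percentile 94.5 overlapped an 87 bp HD3 peak at percentile 0.0638, with summits 307 bp apart. The same aRBC peak also overlapped a 298 bp HD3 peak at percentile 68.2, with summits 16 bp apart, so the site as a whole was not weak in HD3. The opposite order of ranks was found on chromosome 1 from 88475194 to 88475447, with an aRBC peak at percentile 2.01 over an HD3 peak at percentile 97.7. A like pair lay on chromosome 16 from 527838 to 528171, at percentile 3.68 in aRBC and 98.9 in HD3. In both of these the aRBC peak belonged to a cluster, of 8 and 10 aRBC peaks. Their −log10 q was 42.6 and 35.1, above the aRBC median of 18.7, so their low rank by fold enrichment was not a weak call. The low HD3 peaks on chromosome 5 and at percentile 0.0638 on chromosome 1 had a −log10 q of 3.10 and 2.64, below the HD3 median of 11.8.

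Shared peaks were wider than unshared ones in both lists, and by more in aRBC. In the aRBC list the median width was 259 bp for shared peaks (quartiles 187 and 355) and 158 bp for aRBC peaks without HD3 (118 and 233), a ratio of 1.64. In the HD3 list it was 194 bp for shared peaks (137 and 270) and 157 bp for HD3 peaks without aRBC (116 and 215), a ratio of 1.24. The unshared classes of both lists thus had nearly equal medians. Stronger peaks were wider, with medians of 132 bp in the lowest and 327.5 bp in the highest aRBC bin of rank, and 102 and 254.5 bp in HD3. Within the 10 bins of rank the ratio of shared over unshared widths exceeded 1 in 9 of 10 aRBC bins (0.978 to 1.59) and in 10 of 10 HD3 bins (1.10 to 1.30). Within pairs the aRBC peak was the wider one in 73.0%, with a median of 263 bp in aRBC and 195 bp in HD3 and a median ratio of 1.26. In 63.0% of pairs one peak lay wholly inside the other. Cut by width, 18.3% of aRBC peaks under 150 bp were shared and 64.2% of those from 250 to under 400 bp. In HD3 the shares in these ranges were 33.6% and 57.4%. These shares are the same association seen from the other side. A wider peak has more chance to overlap another by 1 bp, so the association may be partly built in. How far was not tested, since no width comparison used windows of equal width around the summits. The narrowest peak had 88 bp in each aRBC class and 69 bp in each HD3 class, so widths in the 2 lists start from unlike floors. Peak width depends on depth and on the caller as well as on the site, and the part of these was not tested.

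**Figure D3:**
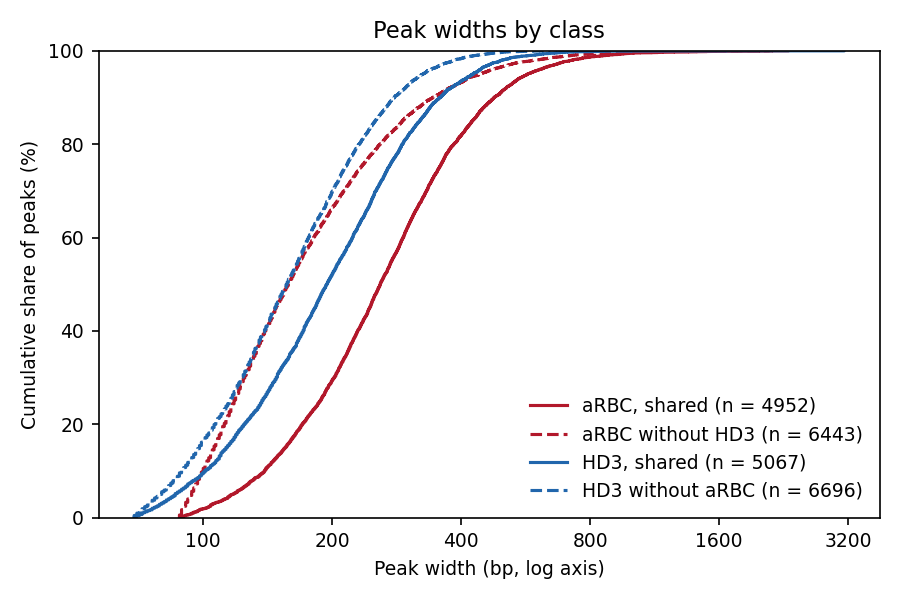
Cumulative share of peaks (y axis, %) by peak width (x axis, bp, log axis) for the 4 classes. The curve of shared aRBC peaks lies to the right with a median of 259 bp, shared HD3 peaks follow with 194 bp, and both unshared classes cross the middle near 158 and 157 bp.

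The widest peaks of each class differed in rank by fold enrichment. The widest shared aRBC peak spanned 2322 bp on chromosome 3 from 2474081 to 2476402, at percentile 39.8. The widest aRBC peak without HD3 spanned 2091 bp on chromosome 11 from 761028 to 763118, at percentile 4.61, and lay 2.77 kb from the nearest HD3 peak. In HD3 the widest shared peak spanned 3132 bp on chromosome 16 from 1838541 to 1841672 and ranked at percentile 0.259. The widest HD3 peak without aRBC reached 641 bp, on chromosome 8 from 334338 to 334978, at percentile 90.6. In the order given, the −log10 q of these peaks was 214, 22.8, 51.4 and 54.8. Each was above the median of its list (18.7 in aRBC, 11.8 in HD3), so a low rank was not a weak call.

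Shared peaks nearly all recurred in eRBC, and peaks without a partner recurred in other cell types less often than their lists as a whole. In eRBC, 96.0% of shared aRBC peaks (95.4% to 96.5%) and 95.9% of shared HD3 peaks (95.3% to 96.4%) were overlapped. These stand beside 62.6% of all aRBC peaks and 58.5% of all HD3 peaks. Of aRBC peaks without HD3, 37.0% (35.8% to 38.2%) were eRBC peaks, and of HD3 peaks without aRBC, 30.2% (29.1% to 31.3%). In fibroblasts, which stand for a lineage outside blood, 64.9% of shared aRBC peaks and 63.9% of shared HD3 peaks were overlapped, beside 46.7% of all aRBC and 42.2% of all HD3 peaks. The unshared classes had 32.7% (31.5% to 33.8%) in aRBC and 25.7% (24.7% to 26.8%) in HD3.

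The unshared classes split by these readouts into sites of unlike rank. Of aRBC peaks without HD3, 2746 (42.6%) were in neither eRBC nor fibroblasts and had a median percentile of 26.2, while the 792 found in both had 48.9. Another 1592 were found in eRBC and not fibroblasts (median percentile 42.6) and 1313 in fibroblasts and not eRBC (35.2). Of HD3 peaks without aRBC, 3737 (55.8%) were in neither, with a median percentile of 44.3, and the 784 found in both had 57.4. The 1238 found in eRBC and not fibroblasts were weaker, with a median percentile of 35.0, and the 937 found in fibroblasts and not eRBC had 55.5. In the highest rank bin the aRBC list held 126 unshared peaks, of which 79 (62.7%) were fibroblast peaks and 56 (44.4%) eRBC peaks, against 87.9% and 93.1% of all aRBC peaks of that bin. The HD3 list held 648 there, of which 255 (39.4%) were fibroblast peaks and 180 (27.8%) eRBC peaks, against 62.8% and 59.2% of all HD3 peaks of that bin.

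Strong sites of 1 list alone were named by the highest fold enrichment. The first aRBC peak without HD3 lay on chromosome 31 from 3956136 to 3956248 (fold enrichment 50.6, rank 7), 757 kb from the nearest HD3 peak, and was also found in eRBC and fibroblasts. The next lay on chromosome 3 from 6969512 to 6969812 (46.9, rank 8) and on chromosome 20 from 516502 to 516599 (42.97, rank 9), both found in fibroblasts and not in eRBC, at 140 and 5.18 kb from the nearest HD3 peak. HD3 peaks without aRBC were led by chromosome 1 from 142908112 to 142908431 (32.5, rank 12) and chromosome 4 from 57877335 to 57877594 (31.6, rank 13), found in no other list. After these came chromosome 4 from 19605257 to 19605643 (30.02, rank 17), found in eRBC too. The distances of these 3 to the nearest aRBC peak were 37.8, 243 and 168 kb.

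The 2 cell types differed in how peaks were spread over large and small chromosomes. On chromosomes 11 to 33 the aRBC list had 22.7 peaks per Mb, against 7.39 on chromosomes 1 to 5, a ratio of 3.08 (95% interval 2.95 to 3.21). The HD3 list had 15.4 on the small and 10.5 on the large chromosomes, a ratio of 1.47 (1.41 to 1.53). Shared peaks had a ratio of 2.37 (2.22 to 2.52) by aRBC peaks and 2.33 (2.19 to 2.48) by HD3 peaks, which are the same overlapping sites seen from either list and so are close by construction. For aRBC peaks without HD3 the ratio was 3.78 (3.58 to 3.99), with 14.1 peaks per Mb on small and 3.72 on large chromosomes. For HD3 peaks without aRBC it was 0.986 (0.927 to 1.05), with 6.63 and 6.73 peaks per Mb. HD3 had more peaks than aRBC on 10 of 10 chromosomes from 1 to 10, and aRBC had more on 15 of the 22 from 11 to 33 that carried peaks.

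The shared share moved in opposite directions between these chromosome groups. Of aRBC peaks, 38.1% (36.7% to 39.5%) were shared on chromosomes 11 to 33 against 49.6% (48.1% to 51.1%) on chromosomes 1 to 5, a difference of −11.5 percentage points. Of HD3 peaks, 57.0% (55.3% to 58.7%) were shared on the small against 35.9% (34.8% to 37.1%) on the large chromosomes, a difference of 21.1 points. Both directions were seen at each level of strength. In the top 25% of the aRBC list the shares were 76.1% on small and 84.0% on large chromosomes, and in the lowest 25% 10.9% and 15.9%. In HD3 they were 65.9% and 41.5% in the top 25%, and 46.7% and 29.3% in the lowest. The aRBC difference rested in large part on a few chromosomes: without chromosomes 16, 27 and 30 to 33 it was −3.54 points, and without dense windows (100 kb with at least 10 peaks in either list) −6.49, while the HD3 difference was 18.8 and 19.9. The running numbers in the peak names have gaps, and these were uneven too: 21.0% of aRBC numbers were missing on chromosomes 11 to 33 and 35.1% on 1 to 5, against 34.7% and 40.9% of HD3 numbers. The part of these gaps in the chromosome pattern was not tested.

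**Figure D4:**
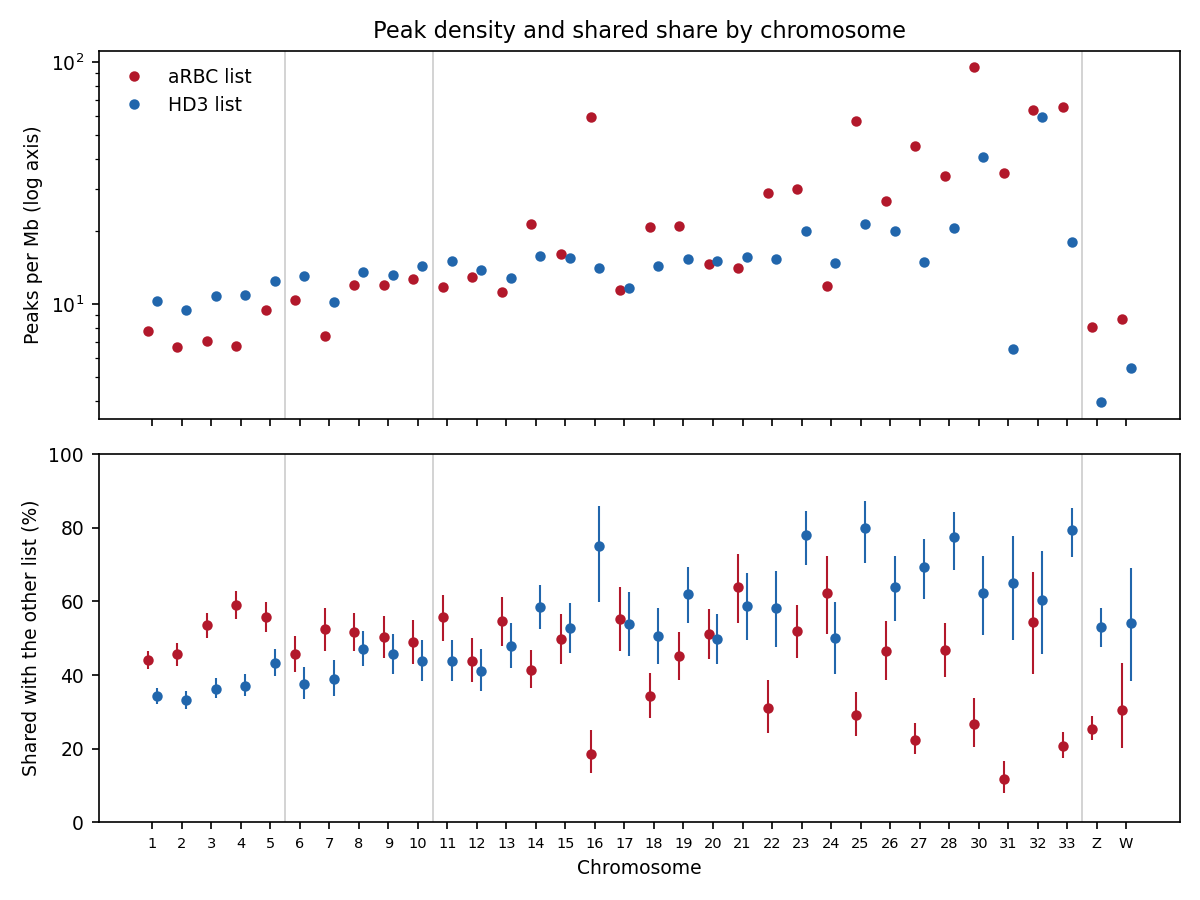
Peaks per Mb (upper panel, log axis) and share of peaks overlapped in the other list (lower panel, %, with 95% Wilson intervals) for the aRBC and HD3 lists on each chromosome, with grey lines after chromosomes 5, 10 and 33. HD3 points lie above aRBC points in density on chromosomes 1 to 10, and the shared shares of the 2 lists cross among the small chromosomes.

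On some small chromosomes the contrast was wide. Shared peaks are nearly equal in number in both lists, so the list with more peaks on a chromosome has the lower shared share. Chromosome 33 held 510 aRBC peaks, of which 20.8% were shared, and 141 HD3 peaks, of which 79.4% were shared. On chromosome 27 there were 365 aRBC peaks (22.5% shared) and 121 HD3 peaks (69.4% shared), and on chromosome 31, 214 aRBC peaks (11.7%) and 40 HD3 peaks (65.0%). Chromosome 16, which carries the chicken major histocompatibility complex, held 168 aRBC peaks (31 shared) and 40 HD3 peaks (30 shared). On chromosomes 17, 20 and 21, in contrast, the counts were close, with 123, 203 and 97 aRBC peaks and 126, 209 and 107 HD3 peaks. In windows of 1 Mb picked for an excess of aRBC over HD3 peaks, fibroblast peaks outnumbered aRBC peaks. Counts of aRBC, HD3, eRBC and fibroblast peaks were 85, 0, 10 and 174 on chromosome 33 from 1000001 to 2000000. From 1 to 1000000 they were 88, 8, 13 and 219 on chromosome 27, and 107, 27, 50 and 123 on chromosome 14. In windows picked for an excess of HD3 peaks, both fibroblast and eRBC peaks outnumbered aRBC peaks. The way these windows were picked favours low aRBC counts. Counts of aRBC, HD3, eRBC and fibroblast peaks were 8, 28, 11 and 21 on chromosome 1. They were 4, 23, 7 and 20 on chromosome 4, and 11, 30, 18 and 13 on chromosome 5. The fibroblast list was also the longest, with 17681 peaks against 11395 in aRBC. In the chromosome 14 window the fibroblast excess was proportionally smaller than that of the whole lists.

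Chromosome Z carried more aRBC than HD3 peaks. It held 668 aRBC peaks (8.09 per Mb) and 325 HD3 peaks (3.94 per Mb), which was 1.10 times (1.01 to 1.19) the density on chromosomes 1 to 5 in aRBC and 0.375 times (0.335 to 0.419) in HD3. In aRBC this ratio was 0.954 among peaks of −log10 q 10 or more, with an interval that includes 1 (0.861 to 1.06). By the bases covered it was 0.896, without an interval. The aRBC peaks were uneven along Z: windows of 1 Mb had a median of 5 aRBC and 4 HD3 peaks, and maxima of 85 and 14. The unshared peaks of Z had a ratio of 1.62 in aRBC and 0.276 in HD3, and the shared peaks 0.562 and 0.553. Hens carry a single Z and a W, and the sex of the HD3 line is not given in the sources used here. Chromosome W held 59 aRBC and 37 HD3 peaks, so both lists had peaks there.

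Peaks of aRBC were more crowded than those of HD3. Another peak of the same list lay within 5 kb for 49.4% (48.5% to 50.3%) of aRBC peaks and 24.7% (23.9% to 25.5%) of HD3 peaks. Among peaks of −log10 q 10 or more these shares were 41.5% in aRBC and 13.96% in HD3. The crowding was strongest in the aRBC peaks without HD3, of which 60.3% (59.1% to 61.5%) had such a neighbour, against 35.2% (33.9% to 36.5%) of shared aRBC peaks. In HD3 the order was the other way, with 20.9% (19.9% to 21.9%) of HD3 peaks without aRBC and 29.7% (28.5% to 31.01%) of shared HD3 peaks. The median distance to the nearest peak of the same list was 2.35 kb for aRBC peaks without HD3, 11.2 kb for shared aRBC peaks, 18.9 kb for HD3 peaks without aRBC and 12.4 kb for shared HD3 peaks.

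When peaks at most 5 kb apart were joined, the 11395 aRBC peaks formed 7805 groups, and the 11763 HD3 peaks formed 10213. Groups of 1 peak held 50.6% of aRBC and 75.3% of HD3 peaks. Clusters of 5 to 9 peaks numbered 150 in aRBC and 5 in HD3, and clusters of 10 or more 18 in aRBC and 0 in HD3. The shared share of aRBC peaks was 55.7% for peaks standing alone, 42.0% in clusters of 2, 25.5% in clusters of 3 to 4, 14.3% in clusters of 5 to 9 and 12.3% in clusters of 10 or more. In HD3 it was 40.2% for peaks standing alone, 50.4% in clusters of 2 and 57.9% in clusters of 3 to 4. Larger aRBC clusters also held peaks of lower rank by fold enrichment, with a median percentile of 23.7 in clusters of 10 or more and 59.1 for peaks standing alone. The −log10 q was not compared by cluster size. Of the 310 aRBC peaks in clusters of 10 or more, 55.8% were fibroblast peaks and 28.1% eRBC peaks, against 46.7% and 62.6% of all aRBC peaks.

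**Figure D5:**
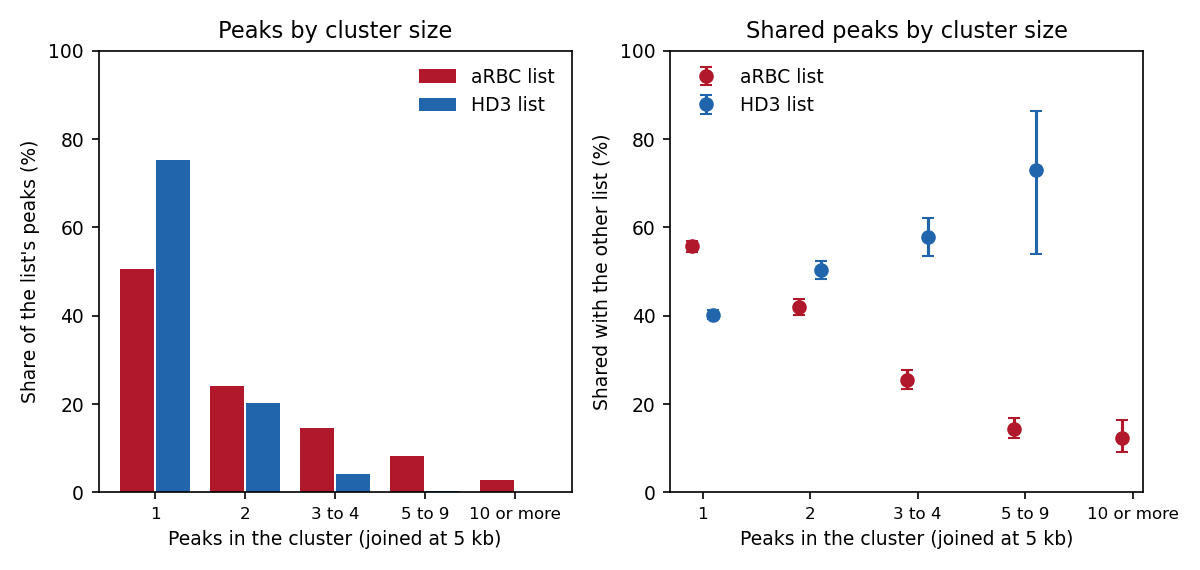
Share of each list's peaks (left, %) and share of peaks overlapped in the other list (right, %, with 95% Wilson intervals) by the number of peaks in the cluster, for the aRBC and HD3 lists. The aRBC bars reach into clusters of 10 or more, where 12.3% of peaks are shared, and the HD3 list has no cluster of that size.

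The largest aRBC cluster lay on chromosome 16 from 1789381 to 1832253, with 34 peaks in 42.9 kb and summits a median of 0.919 kb apart. Of its peaks 8 were shared, and the HD3 list had 11 peaks in the same stretch. The largest HD3 cluster lay on chromosome 2 from 52141128 to 52145701, with 6 peaks in 4.57 kb, all 6 of them shared with aRBC and found in eRBC and fibroblasts. Of the 6443 aRBC peaks without HD3, 1587 (24.6%) were in a cluster with a shared peak, 2300 (35.7%) in a cluster with none and 2556 (39.7%) stood alone. Of the 6696 HD3 peaks without aRBC, 479 (7.15%) were in a cluster with a shared peak, 920 (13.7%) in a cluster with none and 5297 (79.1%) stood alone. Most peaks without a partner lay more than 5 kb from the other list, with 27.1% of those in aRBC and 11.3% in HD3 within 5 kb. This distance cannot show sites that fell below the cutoff of the other list or were removed from it. The nearest HD3 peak was a median of 18.0 kb from an aRBC peak without HD3 (within 1 kb for 13.4%), and the nearest aRBC peak a median of 50.9 kb from an HD3 peak without aRBC (within 1 kb for 5.84%).

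At the scale of 1 Mb the lists differed in evenness. Over 1033 windows of 1 Mb, the aRBC list had a median of 7 and a maximum of 107 peaks, and the HD3 list a median of 10 and a maximum of 50. The variance of the count was 14.5 times its mean in aRBC and 3.94 times in HD3. HD3 had more peaks in 671 windows and aRBC in 308, while the counts had a Spearman rho of 0.584 over windows counted in the same libraries. Windows with no aRBC peak numbered 54, of which 31 held at least 3 HD3 peaks, and windows with no HD3 peak numbered 23, of which 10 held at least 3 aRBC peaks. Empty stretches over 1 Mb between neighbouring peaks numbered 139 in aRBC and 58 in HD3.

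The following stretches were chosen after their values were seen. The longest without an aRBC peak ran on chromosome 2 from 70302225 to 73605812 (3.30 Mb) and held 5 HD3 peaks with a median percentile of 98.5, none of them in eRBC or fibroblasts. The next, on chromosome 3 from 18949062 to 21824053 (2.87 Mb), held 24 HD3 peaks, 8 of them in eRBC, and one on chromosome 4 from 5955837 to 8558031 (2.60 Mb) held 16, of which 1 was in eRBC. The longest stretch without an HD3 peak was on chromosome 33 from 118342 to 2875610 (2.76 Mb) and held 200 aRBC peaks with a median percentile of 28.5, of which 131 were fibroblast and 24 eRBC peaks. On chromosome Z from 75508991 to 77694528 (2.19 Mb), 66 aRBC peaks with a median percentile of 17.9 stood where HD3 had none. Of these, 50 were fibroblast and 8 eRBC peaks. Among all aRBC peaks without HD3, 32.7% were fibroblast and 37.0% eRBC peaks. Among all HD3 peaks without aRBC the shares were 25.7% and 30.2%. The other 3 of the 5 longest stretches without an HD3 peak, from 1.94 to 2.60 Mb on chromosomes 2 and 3, held 4 to 8 aRBC peaks each.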

How the data were processed

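The values were the peak lists of aRBC and HD3, with those of eRBC and fibroblasts as readouts, 1 list per cell type, for which the labels give 2 samples. How the samples were combined is not given in the sources used here, and a list may hold the peaks of 1 sample. Each library came from 150000 cells, a Tn5 treatment of 30 min and 10 cycles of PCR, per the labels' protocols. A lane of the first aRBC sample came from a Novaseq instrument, per the labels. The submitters' processing notes name the build GRCg6a, Bowtie2 2.3.5, SAMtools 1.9 and MACS2 2.1.2. HD3 peak names contain HD32, macs2 and 0.01, and aRBC names aRBC2 and CLEANED. Whether Tn5 offsets were corrected is not given. Each deposited peak has a fold enrichment (a ratio), a −log10 p, a −log10 q and a display score from the authors' caller, used only within a list. The lowest −log10 q was 2.19 in aRBC and 2.01 in HD3. Depth is unknown. Of the running numbers in peak names, 28.7% were missing in aRBC and 40.3% in HD3.

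Overlap, rank, nearest distance and clusters (5 kb joins) were computed from the intervals, with positions written from 1. Chromosome lengths were taken as the last peak end in any list. Density ratios have 95% intervals from counting error, and shares 95% Wilson intervals. Peaks named singly were the 3 of highest fold enrichment in each unshared class, the 3 pairs with the best worse rank, the 2 pairs with the largest percentile difference each way, and the widest peak of each class and largest cluster of each list. The gene table at hand is of assembly GRCg7b, another build, so no gene was assigned and no sequence printed. The members and measures were chosen with earlier results of these data known. The code recovered planted overlap in simulated lists, and 12 of 12 overlap counts matched bedtools 2.31.1. The software was pandas 2.3.3 and NumPy 2.4.6 in Python 3.11.15, with matplotlib 3.10.9 for plots and SciPy 1.17.1 for intervals. Alternatives kept only peaks of −log10 q 10 or more, or used lists of equal length, overlap of 50% of the shorter peak, 200 bp around summits, ranks by −log10 p, covered bases, other chromosome groups, joins of 1 kb and of 2.5 times the main distance, removal of 136 dense windows (100 kb with at least 10 peaks in either list) and, added after the data were seen, removal of single chromosomes. The difference of shared shares between chromosome groups and the density ratio of Z, with all their alternatives, were added after the data were seen too.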

Additional observations from a re-analysis of the deposited data

How the results depend on the processing

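No paired analysis was possible because aRBC and HD3 have 1 list each, with no replicate numbers and no sample to leave out. Of 108 alternative values for 18 results, 60 stayed within the interval of the result, 45 moved beyond it and 3 crossed their dividing value. The causes were not tested, except where shorter lists or other joining distances change the value by construction.

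Peaks of −log10 q 10 or more, of which there were 8019 in aRBC and 6883 in HD3, gave other values. Of these aRBC peaks 36.8% were shared, and the width ratio in aRBC was 1.43. The median rank of shared peaks was 73.7 in aRBC. In HD3 it was 49.9 (48.0 to 52.1), which crossed the middle of the list with an interval that includes it. Clustered peaks made up 41.5% in aRBC and 13.96% in HD3, and eRBC peaks 52.2% of aRBC peaks without HD3 and 26.4% of HD3 peaks without aRBC. The density ratio of small over large chromosomes was 1.33 in HD3 and 0.840 for HD3 peaks without aRBC. That of Z was 0.306 in HD3 and 0.954 (0.861 to 1.06) in aRBC, which crossed 1 with an interval that includes it. The shared share of HD3 differed by 23.6 points.

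With 200 bp around the summits, 42.5% of aRBC and 41.3% of HD3 peaks were shared, and 35.1% of aRBC peaks without HD3 were in eRBC. Ranks by −log10 p gave shared medians of 70.8 in aRBC and 56.0 in HD3. In lists of equal length 23.8% of HD3 peaks were clustered. Joins of 1 kb gave 31.4% clustered in aRBC and 14.1% in HD3, and joins of 2.5 times the main distance 65.3% and 43.8%. Chromosomes 9 to 33 over 1 to 8 gave density ratios of 2.69 in aRBC, 1.41 in HD3 and 3.24 for aRBC peaks without HD3, and a difference of 18.2 points in the shared share of HD3. Covered bases gave 2.87 for small chromosomes and 0.896 for Z in aRBC, the second crossing 1.

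Without dense windows, 48.9% of aRBC and 41.7% of HD3 peaks were shared, the shared median in aRBC was 69.9, clustered peaks made up 41.6% in aRBC and 23.4% in HD3, and 41.8% of aRBC peaks without HD3 were in eRBC. Density ratios were 2.53 in aRBC, 1.39 in HD3 and 2.88 for aRBC peaks without HD3, and the shared share of aRBC differed by −6.49 points. These windows were picked for many peaks, 131 of them in aRBC and 6 in HD3, so the fall is partly built in. Without chromosomes 16, 27 and 30 to 33 the ratios were 2.42 in aRBC and 2.59 for aRBC peaks without HD3, and the shared share differed by −3.54 points in aRBC and 18.8 in HD3. With Z and W left out as well, 48.4% of aRBC and 41.6% of HD3 peaks were shared, the shared median in aRBC was 70.1, 47.8% of aRBC peaks were clustered, and 41.9% of aRBC peaks without HD3 were in eRBC.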
